A study of Caenorhabditis elegans with 2 samples.

Results

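cmtr-1 (WBGene00013160) carried the strongest peak of ATTF-3 in young adult Caenorhabditis elegans, with a signal of 5279.66 in the list made from both replicates. The gene was chosen by that peak signal, as the highest of the 1737 peaks of the joint list, so its height is a description and no test was made of it. It is 1 of 19973 protein-coding genes on the nuclear chromosomes, of which 1212 (6.07%) had the summit of a joint peak within 500 bp of their annotated 5' end and are called bound here. Each peak at the gene, from 2000 bp before it to 2000 bp after it, was read from all 8 deposited lists.

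ChIP-seq with an antibody against GFP was done on whole worms of strain RW12296, in which CRISPR placed TY1, EGFP and 3xFLAG tags at attf-3 on chromosome III (allele st12296). All samples form 1 group of 2 biological replicates, both young adults of 63 hours grown from L1 larvae starved after bleaching. There was thus no contrast between conditions, every value comes from the tagged strain, and untagged worms were not analysed here. Whole animals mix all tissues, so a strong peak in few cells and a weaker one in many cannot be told apart. Signal values are the authors' own, their scale is not stated, and without read counts the depth of the replicates is unknown. The tagged gene itself had a joint peak of 832.02 (rank 115), with signals of 433.79 in replicate 1 and 405.19 in replicate 2.

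CMTR1 is the enzyme that adds a methyl group to the ribose of the first transcribed nucleotide of messenger RNA, next to the cap. In mammals this mark helps cells to tell their own RNA from foreign RNA. Proteins with AT-hooks, the motif attf-3 is named for, are known for contacts with the minor groove of DNA rich in A and T. In ChIP-seq the summit of a peak is the base at which the recovered fragments pile up highest.

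The promoter of cmtr-1 is shown because it holds the summit. It is given on the plus strand, in which the gene is transcribed, from the start of the neighbouring snoRNA gene to the last base before the 5' end (chrII:15025814-15026113, ce11, from the RefSeq genome sequence). The capitals mark the reverse complements of 2 short sequences, GGAGNNTCG and TAAACAA, which recur at other high peaks and read on the minus strand here.
cmtr-1 promoter: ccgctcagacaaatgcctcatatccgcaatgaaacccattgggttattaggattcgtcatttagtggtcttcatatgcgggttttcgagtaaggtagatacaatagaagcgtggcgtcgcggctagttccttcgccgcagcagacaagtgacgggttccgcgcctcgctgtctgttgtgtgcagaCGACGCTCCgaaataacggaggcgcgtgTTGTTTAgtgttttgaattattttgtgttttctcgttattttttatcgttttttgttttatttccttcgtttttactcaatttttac

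The 60 bases around these sequences are set beside the same stretch of 4 of the 5 next highest peaks, for comparison; the stretch at timm-23, the other of the 5, is not shown. They are read on the strand that carries the sequences, which are in capitals: cmtr-1 at chrII:15025988-15026047 (minus), rps-28 at chrIV:1659213-1659272 (minus), dld-1 at chrIV:14464215-14464274 (plus), rpb-12 at chrIV:9147119-9147178 (plus) and T23F6.3 at chrIV:12724825-12724884 (minus). None of the 5 stretches overlaps a protein-coding exon.
cmtr-1: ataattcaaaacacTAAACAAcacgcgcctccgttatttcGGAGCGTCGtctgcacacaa
rps-28: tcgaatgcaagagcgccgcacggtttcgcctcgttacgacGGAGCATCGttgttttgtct
dld-1: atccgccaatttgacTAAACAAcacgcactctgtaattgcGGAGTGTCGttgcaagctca
rpb-12: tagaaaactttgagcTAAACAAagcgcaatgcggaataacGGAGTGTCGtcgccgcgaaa
T23F6.3: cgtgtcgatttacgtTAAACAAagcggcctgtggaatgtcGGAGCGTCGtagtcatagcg

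The peak ranked first in all 8 lists. These are not 8 separate measures. The joint and pooled lists, thresholded and ranked, all give it the same 5279.66, and each replicate's ranked and thresholded lists share 1 value. In the list of replicate 1 alone, with 964 peaks, its signal was 2670.79, and in that of replicate 2, with 1063 peaks, it was 2611.41, a mean of 2641.1 ± 42.0 (SD, n = 2). The replicates thus differed by 1.02-fold at this site. Over the 759 joint peaks matched to a peak in each replicate's own list, the ratio of replicate 1 to replicate 2 had a median of 0.929. Its quartiles were 0.821 and 1.06. Some of these joint peaks were matched to the same replicate peaks, which therefore entered more than once.

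**Figure D1:**
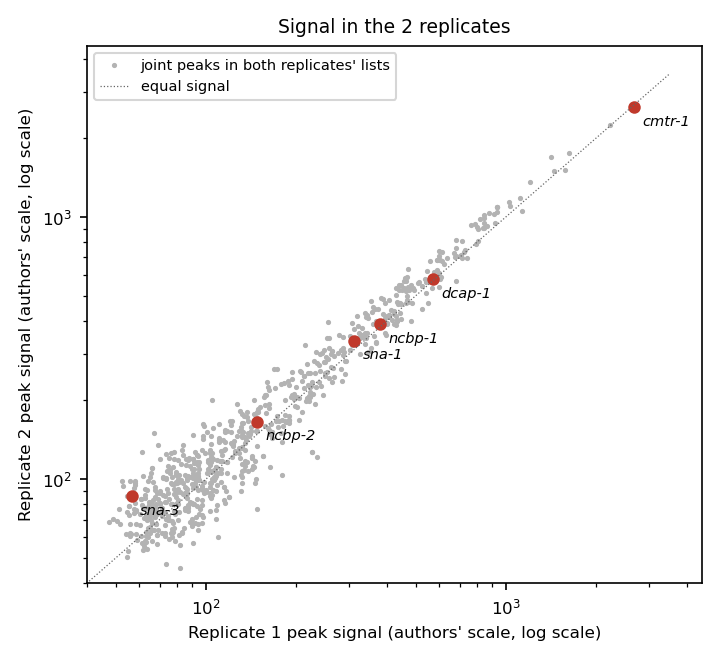
Peak signal in replicate 1 against replicate 2, both on log axes in the authors' scale, for the 759 joint peaks matched to a peak in both replicates' own lists. Some joint peaks share the same replicate peaks. The red points are genes of the cap list described further on, and cmtr-1 lies at the top right, near the line of equal signal, at 2670.79 and 2611.41.

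The second highest peak, upstream of the ribosomal protein gene rps-28, reached 4451.43 in the joint list, so that cmtr-1 stood 1.19-fold above it. The margin was 1.20-fold in replicate 1 and 1.16-fold in replicate 2, a mean of 1.18 ± 0.0280 (SD, n = 2). The median joint peak had a signal of 122.816, and cmtr-1 exceeded it 43.0-fold. Over the medians of the replicates' own lists it stood 28.6-fold and 27.4-fold. The cmtr-1 peak alone made up 1.22% of the summed signal of the joint list.

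After rps-28 came timm-23, which encodes a mitochondrial import channel, at 3367.08, and dld-1, the dihydrolipoamide dehydrogenase gene, at 3088.42. The RNA polymerase subunit gene rpb-12 followed at 3047.14, and T23F6.3 at 2936.57. By the distance of log2 signal over the 2 replicates, these same 5 were the nearest to cmtr-1, from 0.34 for rps-28 to 1.20 for T23F6.3. Since cmtr-1 was the highest in both replicates, this distance picks out the next highest peaks by construction and shows no further likeness. At rps-28 the replicates had 2221.53 and 2246.23, and at timm-23 1625.09 and 1748.95. In each replicate the cmtr-1 value lay above every other peak.

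**Figure D2:**
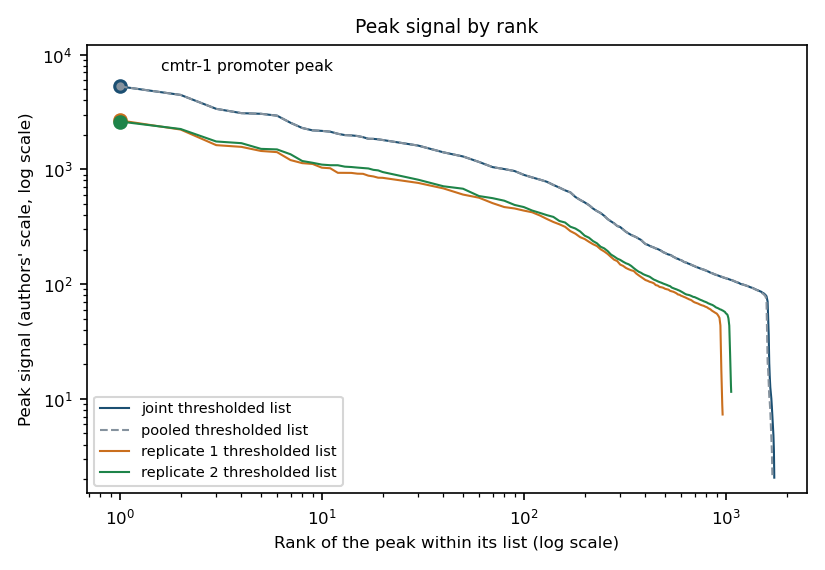
Peak signal against rank within each of the 4 thresholded lists, both on log axes, with the cmtr-1 peak as a filled circle at rank 1. The joint and pooled lists nearly coincide and start at 5279.66, and the replicates' lists start at 2670.79 and 2611.41.

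The joint peak spanned 494 bp (chrII:15025722-15026215), with its summit at base 15025973, 141 bp upstream of the annotated 5' end of cmtr-1. Replicate 1 placed the summit 142 bp upstream and replicate 2 placed it 141 bp upstream, a gap of 1 bp. The median gap over the same 759 matched joint peaks was 12 bp (quartiles 5 and 26), and 64 of them (8.43%) had a gap of at most 1 bp. The peak was 468 bp wide in replicate 1 and 446 bp wide in replicate 2. In the joint list 77.2% of the peaks had the same width of 320 bp, and only 11 were wider than that at cmtr-1. The irreproducible discovery rate (IDR), which measures how consistently paired rankings order a peak, was at the lowest value written in the ranked lists, 1e-05.

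Of the 494 bp, 251 lay between genes, among them the summit, and 91 lay in the first exon of cmtr-1 with a further 11 in its first intron. The 3' end of Y53F4B.12, annotated as a protein with an amino acid permease domain, took 61 bp. The remaining 80 bp were the whole of Y53F4B.47, a small nucleolar RNA (snoRNA) gene on the minus strand. snoRNAs guide the chemical modification of ribosomal and other RNAs. Of the 464 stretches of 31 bases within the peak, 13 (2.80%) occur a second time in the genome, all of them inside the snoRNA gene and none touching the 101 bp around the summit.

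cmtr-1 (chrII:15026114-15037854, plus strand) has 1 annotated transcript that starts at this 5' end, with a 5' UTR of 82 bases. The other 3 start at base 15026196, from which the summit was 223 bp upstream. They have 0 annotated bases of 5' UTR, so this base is where their coding sequence begins. The snoRNA gene (chrII:15025814-15025893) reads away from cmtr-1, and the summit lay 80 bp upstream of its 5' end, nearer than to cmtr-1. Y53F4B.12 reads towards the peak, and its own 5' end was 6750 bp from the summit. Peaks carry no strand, so cmtr-1 and the snoRNA gene share the peak and the lists do not tell which of them it belongs to.

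**Figure D3:**
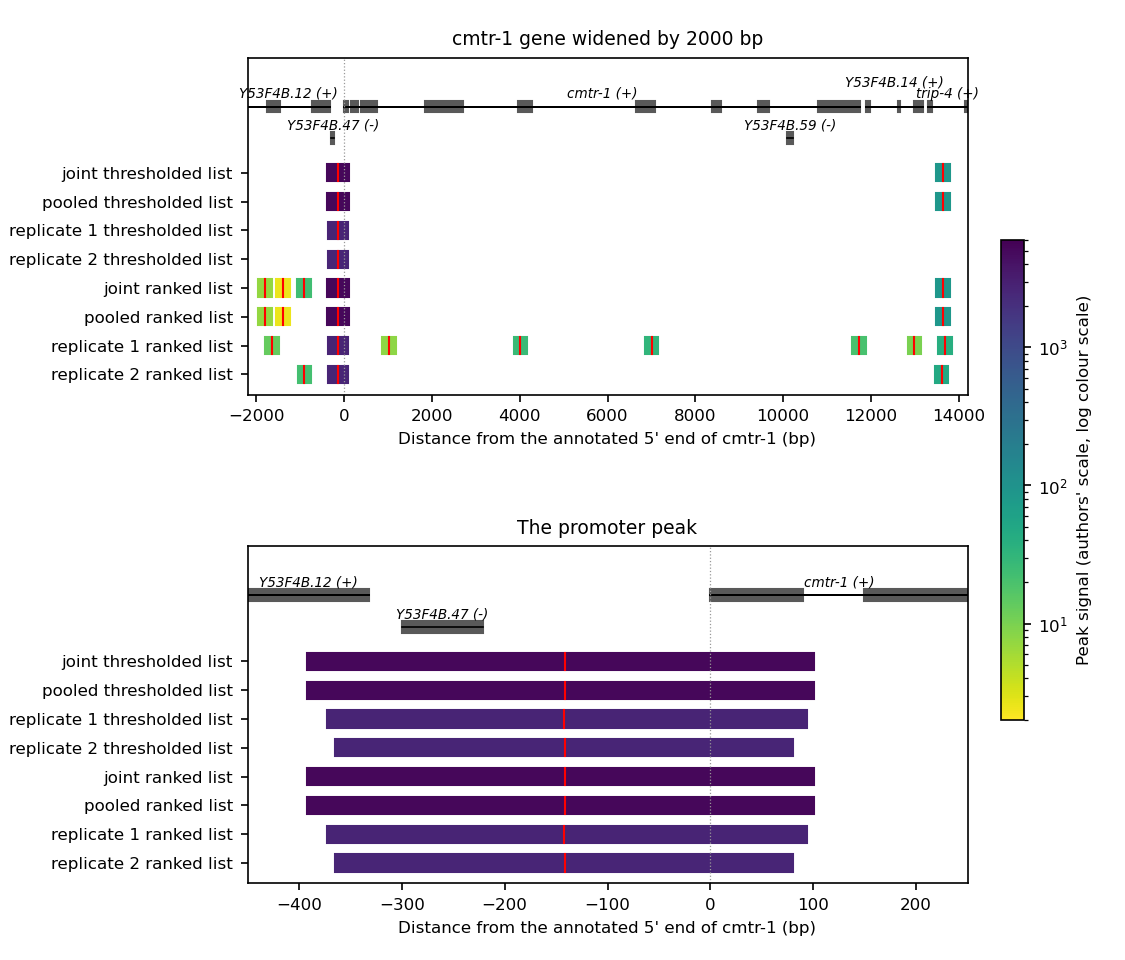
Peaks of the 8 lists along the distance in bp from the annotated 5' end of cmtr-1, with exons as grey boxes, strands in brackets, summits as red lines and colour for signal on a log scale. The upper panel covers the gene widened by 2000 bp and the lower panel the promoter, where the 494 bp joint peak covers the snoRNA gene Y53F4B.47 and the first exon of cmtr-1.

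Other snoRNA genes had joint peaks too, all of them lower by construction, since the cmtr-1 peak was chosen as the highest. Of 346 annotated snoRNA genes, 66 (19.1%), Y53F4B.47 among them, had a joint summit within 200 bp, 47 in the list of replicate 1 and 52 in that of replicate 2. The share of other genes at 200 bp is not given here, so this count has no background beside it. Of the 66, 26 lie inside a protein-coding gene on the same strand, as do 183 of all 346. After the cmtr-1 peak the highest peak near a snoRNA gene was at F59C6.15, with 461.699 and rank 217, so that cmtr-1 stood 11.4-fold above it. The 64 other peaks near snoRNA genes had a median signal of 155.389.

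No joint summit lay inside the 11741 bp of cmtr-1, as in 922 of the 998 genes of at least 10000 bp (92.4%). The ranked lists, which hold peaks before the threshold on IDR, also had none there in the joint, pooled and replicate 2 lists. In the joint ranked list, with 7.11 peaks per 10000 bp over the genome, 90 of the 998 genes (9.02%) had none in their bodies. The ranked list of replicate 1, with 4.33 peaks per 10000 bp over the genome, had 4 in cmtr-1, with signals from 7.75607 to 31.6766 and an IDR of 0.315 or more. Of the bases of cmtr-1, 69.9% are soft-masked as repeats, against a median of 36.7% over those 998 genes, and the part of this in these counts was not tested.

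The nearest joint peaks on either side were much weaker. On the left, 15341 bp away, the peak upstream of Y53F4B.11 had a signal of 314.135 (126.347 in replicate 1 and 193.707 in replicate 2), and cmtr-1 stood 16.8-fold above it. On the right, 13786 bp away and 355 bp downstream of the 5' end of trip-4, the peak had 85.9339 and rank 1492. Neither replicate's own thresholded list held the trip-4 peak. Y53F4B.14, a PET100 homologue, and the non-coding RNA gene Y53F4B.59 inside cmtr-1 had no joint summit in their bodies or within 500 bp of their 5' ends.

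Base composition was not used to choose the gene. In the 101 bp around the summit 35.6% of the bases of cmtr-1 were A or T, against a median of 53.5% (quartiles 47.5 and 59.4) over the joint peaks. It was the lowest of the 10 highest peaks, and 21 of the 1737 joint peaks (1.21%) were lower. In windows at the same distance from the 5' end of all 19973 protein-coding genes the median was 66.3%, and 13 genes were lower. The dip was narrow: the 29 bp on the snoRNA side of the window held 65.5% A and T, and the 90 bp on the cmtr-1 side held 76.7%.

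**Figure D4:**
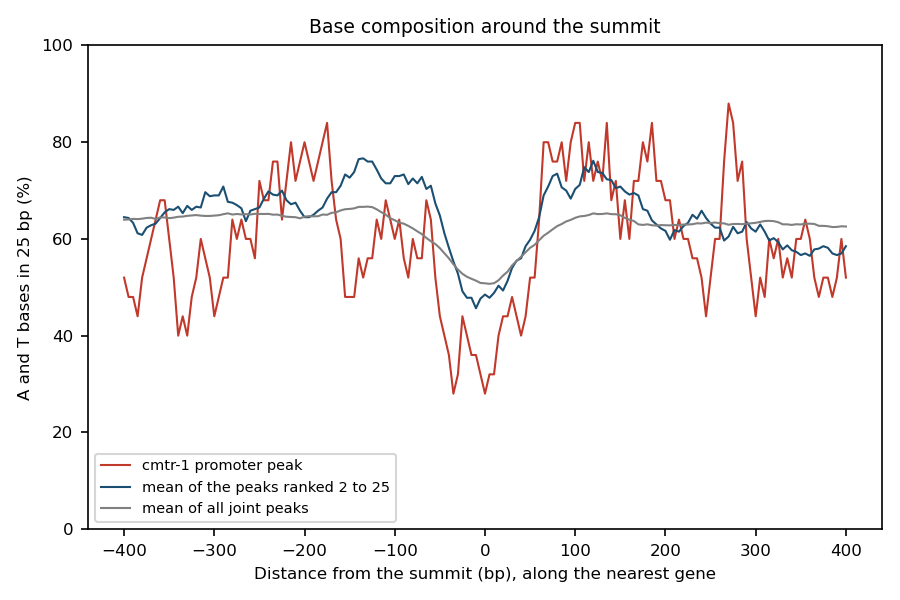
Percentage of A and T bases in a sliding window of 25 bp along the distance in bp from the summit, for the cmtr-1 peak, the mean of the peaks ranked 2 to 25 and the mean of all joint peaks. All 3 dip at the summit, and over the central 101 bp cmtr-1 has 35.6% against a joint median of 53.5%.

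Of 11 short motifs searched on both strands, none matched in the 101 bp around the cmtr-1 summit. TTTTT was in 51.2% of the joint windows and 75.6% of the promoter windows, and AATT in 54.7% and 75.0%. AAATTT, which holds AATT, was in 15.0% and 24.2%, and TATAAA in 4.03% and 13.3%. GAGAG was in 26.7% of the joint and 16.4% of the promoter windows, CACGTG in 2.82% and 1.87%, and GCGCGAA in 5.41% and 0.856%. CTGCGTC was in 5.99% and 1.81%, ACTACAA in 0.979% and 2.02%, GGGCGG in 5.87% and 2.64%, and TTTTCAG in 3.40% and 8.20%. In 201 bp around the cmtr-1 summit, TTTTT matched at 2 places and AATT at 1, and the other 9 had no match. Such a match is a description of letters, and its absence says nothing of a factor.

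The paired sequences GGAGNNTCG and TAAACAA were chosen after the windows of the 12 highest peaks had been read, and the gap allowed between them, 16 to 20 bp on the same strand, after the gaps in all joint peaks had been seen. They are therefore a description, with no test. At cmtr-1 GGAGCGTCG lay 26 to 34 bp downstream of the summit, in the direction of the gene, and TAAACAA 54 to 60 bp downstream, 19 bp apart. GGAGNNTCG was in 11 of the 12 windows of 201 bp it was read from, in 80.2% of the 162 peaks ranked 13 to 174, in 18.2% of those ranked 175 to 868 and in 4.83% of the rest. Of the promoter windows of 19973 genes at the distance of cmtr-1, 1.75% held it. TAAACAA was in 14.5% of all joint peaks and 8.57% of promoter windows. It was in 9 of the 12 windows it was read from, in 60.5% of the peaks ranked 13 to 174 and in 11.8% of those ranked 175 to 868. In those ranked 869 to 1737 its share was 7.25%, below that of promoter windows. Both together at the allowed gap were in 126 joint peaks (7.25%) and in 0.396% of promoter windows.

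Of the 141 places with both sequences on the same strand, 63 had the 19 bp gap of cmtr-1, 47 had 18 bp and 13 had 17 bp. The 126 peaks with the pair had a median signal of 779.07 and the 1611 without had 117.976. The pair was read from the 12 highest peaks, 9 of which are among the 126. The difference in signal is therefore partly by construction and is no test. The rps-28 peak, second in height, had GGAGNNTCG without TAAACAA in its window. The timm-23 peak, with rank 3, had the pair 19 bp apart and a further GGAGNNTCG. In cmtr-1 the middle of the pair lay 43 bp from the summit, against a median of 12.5 bp (quartiles 7 and 22) over the 126, of which 10, cmtr-1 among them, were that far or farther. None of the 64 other peaks near snoRNA genes had the pair. The highest of these 64 had rank 217. Of all joint peaks, 5.76% of those ranked 175 to 868 and 1.04% of those ranked 869 to 1737 had it. With such low shares few of the 64 could hold it, so its absence says little about snoRNA genes.

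**Figure D5:**
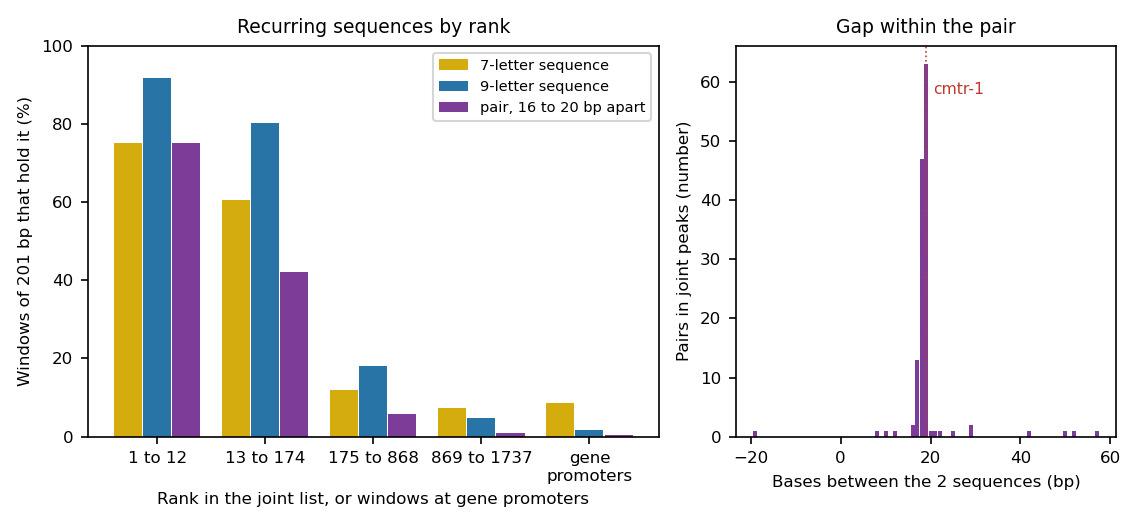
Left, the percentage of 201 bp windows that hold the 7-letter sequence, the 9-letter sequence or the pair, by rank in the joint list and in promoter windows of all genes. Right, the number of pairs by the gap between the sequences in bp, with 63 at the 19 bp of cmtr-1 (dotted line) and gaps beyond the axis not drawn.

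Other genes of the cap were then described from a list of 35 symbols, of which 29 are in the annotation. Of these, 9 were bound in the joint list, against 6.07% of all protein-coding genes, and 8 of 28 (28.6%) without cmtr-1, which was chosen by its peak. Without cmtr-1, replicate 1's own list had 6 of the 28 (21.4%), against 4.03% of all genes, and replicate 2's list also had 6, against 4.4%. The 8 had a median signal of 232.046, and all 1212 bound genes had 155.232. By role and again without cmtr-1, 1 of 3 genes for making and methylating the cap, 3 of 7 for cap binding, 2 of 13 for decapping and decay and 2 of 5 for the spliced leader were bound. The list was set by symbol, and sut-2, counted with the spliced leader genes and not bound, is better known as a suppressor of tau toxicity.

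Among enzymes that make the cap, cel-1, the capping enzyme, had a weak peak of 106.967 (rank 1087), 30 bp upstream, which npp-14 shares. It was in the list of replicate 1 at 57.1685 and not in that of replicate 2. cmtr-2, the other gene named for cap methyltransferase activity, had no summit nearer than 11045 bp, and tgs-1, which encodes the enzyme that hypermethylates caps, none nearer than 66165 bp.

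Both subunits of the nuclear cap-binding complex were bound. ncbp-1, the large subunit, had a joint signal of 779.1, with 379.172 in replicate 1 and 390.678 in replicate 2, at a summit that rbx-2 shares. ncbp-2, the small subunit, had 319.637, with 148.231 and 165.535 in the replicates. Of the 5 genes for the translation factor eIF4E, ife-5 alone was bound, at 88.3023 and in neither replicate's own list. Its window held the pair of sequences at the allowed gap. ncbp-2 and sna-1 also had 1 match of each sequence in their windows, but not on the same strand at that gap.

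The highest of the 8 was dcap-1, which encodes an activator of the decapping enzyme, at 1159.8 (rank 60), with 569.657 in replicate 1 and 580.203 in replicate 2. cmtr-1 exceeded it 4.55-fold. edc-4, an enhancer of decapping, had 111.094 and was in the list of replicate 2 alone, at 66.6323, while dcap-2, the catalytic subunit, had no summit nearer than 18318 bp. sna-1, which encodes a protein of the spliced leader ribonucleoprotein, had 653.039, with 312.458 and 336.775 in the replicates, 35 bp downstream of its 5' end. sna-3 had 144.455, with 56.5831 and 86.0737, at a summit shared with the ribosomal protein gene rps-3.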

How the data were processed

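The data were peak lists from anti-GFP ChIP-seq of whole young adult worms with tags at attf-3, in 2 biological replicates, numbered as in the labels. The labels give sonication, fragments of 200 to 800 bp and assembly ce11. The software that aligned reads and called peaks is not given in the sources used here. There were 8 lists deposited by the authors, ranked or thresholded by IDR, for both replicates jointly, for pooled reads and for each replicate. Each deposited peak has a signal value and a summit, and a scaled IDR score capped at 1000, which in the deposited thresholded lists is never under 830, the score of an IDR of 0.01. In the deposited ranked lists the global IDR is given as its −log10, at most 5. The p-value column and 16 unnamed columns of the ranked lists were not used. Depth is unknown.

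The joint thresholded list was the main one. Gene models came from Ensembl release 115 (WBcel235, the assembly of ce11) and bases from RefSeq's copy. Each summit's distance to annotated 5' ends was computed, with signal compared only within a list or, between replicates, as a ratio of their own lists. Python 3.11.15 and numpy 2.4.6 were used, and the counting of sequences, gaps and distances was tested on simulated data, where 100% of 200 planted cases were recovered. Named were cmtr-1, the genes within 2000 bp of it, the 5 next peaks, the 5 peaks most alike in log2 signal, the flanking peaks, the bound cap genes and attf-3; some others are named as the nearest of their kind, chosen after their values were seen. The gene and the lists were chosen with earlier results of these data known. Alternatives were other lists, each replicate left out, other windows and other widths around the gene.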

Additional observations from a re-analysis of the deposited data

How the results depend on the processing

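Rank 1 and the margin over the next peak were the same in the pooled list and both series-wide ranked lists. Those lists carry the same signal values for these peaks as the joint list, so they add no separate support. Without either replicate the rank was also 1, with a margin of 1.16 to 1.20. The summit distance ranged from -142 to -141 bp with a replicate left out and was -145.5 bp for the middle of the peak. The A and T content was 37.3% within 25 bp of the summit, 52.2% within 100 bp and 61.7% over the whole peak, so the low value holds for the centre alone. By construction the ranked lists, which have no IDR threshold, gave 5 (joint) and 4 (pooled) peaks within 2000 bp of the gene in place of 2. They also gave 22 and 26 bound cap genes in place of 9. The share of all protein-coding genes bound in these ranked lists is not given here, so those cap counts have no background beside them. With either replicate left out, 1 peak remained near the gene (range 1 to 1), as it did with the gene widened by 1000 bp. Of the 11 motifs, 2 matched within 100 bp of the summit in place of 0. The alternatives for the pair of recurring sequences were chosen after seeing the data. It was in 11.0% of the 1063 peaks without replicate 1 and 12.2% of the 964 without replicate 2. In the longer joint list it was in 7.25% of 1737. The higher percentages are thus shares of shorter lists, and their cause was not tested. In the thresholded lists and with other windows, 7 to 10 cap genes were bound. All these cap counts include cmtr-1, which was chosen by its peak. The share of all protein-coding genes bound with the other windows is not given here. The pair was in 113 joint peaks within 50 bp of the summit and in 134 with any gap up to 40 bp. No paired analysis was possible because there is 1 group and no contrast. The lists hold no counts, so depth sets limits that cannot be stated, and 2 replicates give only a rough SD.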
